A study of Sus scrofa with 28 samples.

Results

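The genes described here encode chaperones of the cytosol and the mitochondrion in swine lung after inhaled sulfur mustard (HD), an alkylating vesicant. Members were probe sets whose annotation on the Affymetrix porcine array gave exactly 1 gene symbol of the HSPA, HSPB, HSPD, HSPE, HSPH, HSP90AA, HSP90AB, DNAJ, BAG or CCT families, or TCP1, HSF1 or STIP1. HSPA5, DNAJB9 and HSPBAP1 were left out by the rule, and HSPA5 and DNAJB9 were read with the genes of the endoplasmic reticulum. They came to 53 genes of the 6765 genes with 1 symbol, carried by 86 of 23999 probe sets, and the brightest probe set stood for each gene. AHSA1, an activator of HSP90, was also looked for and had no probe set with 1 symbol. The 53 genes comprised 7 of the HSP70 family, 1 HSP110 gene, 3 for HSP90 and its adaptor STIP1, 21 J proteins, 4 BAG proteins, 7 small heat shock proteins, 6 subunits of the TRiC chaperonin, 3 mitochondrial chaperones and the transcription factor HSF1. The rule also admitted genes whose products reside in the endoplasmic reticulum, among them HSPA13, DNAJB11 and DNAJC3.

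Female large swine were anesthetized, intubated and kept supine, and breathed air or HD vapor for 10 min. The 3 air animals (28, 29 and 44) received no HD, the 3 low animals (31, 32 and 33) received 60 µg/kg, and the 4 medium animals (34, 39, 41 and 42) received 100 µg/kg. RNA of the left apical, median and caudal lobes was taken 12 h later from whole lung tissue, so that all groups share the anesthesia and the intubation, and a change in RNA per cell and a change in the number of cells cannot be told apart. The 28 arrays held 3 lobes of every animal except medium animal 39, which had no caudal array, and medium animal 41, which had no apical array.

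Chaperones bind unfolded stretches of other proteins and release them in cycles driven by ATP. HSP70 proteins are loaded by J proteins and unloaded by nucleotide exchange factors such as HSP110 and the BAG proteins, HSP90 takes on partly folded clients, small heat shock proteins hold unfolded proteins without ATP, and the ring-shaped TRiC folds actin and tubulin. Some of these genes are expressed at all times, and others are induced by HSF1 when unfolded proteins accumulate, as with heat or with agents that react with proteins.

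Signals per probe set were quantile normalised, and each animal's value was fitted from its arrays with the lobe as a term, so that a normalised signal below is 1 value per animal and differences are on the log2(signal + 16) scale with limma's standard error. The median signal of an array ranged from 55.6 to 64.4, and the number of animals limits the precision of every value. RNA integrity was indexed by the excess of 3' over 5' signal (log2) in the actin and GAPDH controls. A higher index is a stronger 3' bias, as less intact RNA gives. The index was 1.36 in medium animal 39, and 0.15 to 0.82 elsewhere. Medium animals averaged 0.598 and air animals 0.64 (exact permutation p = 0.971, two-sided), and low animals averaged 0.280 (exact permutation p = 0.2 against air, two-sided, the smallest possible with these groups being 0.1). The tissue carried lung markers, with SFTPC at 2715 to 3056 and PECAM1 at 1533 to 1885 over the 10 animals, while the cardiac gene TNNT2 lay at 0.535 to 2.44.

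DNAJB1 and HSPA6, both heat-inducible, varied widely between animals of the same exposure group. DNAJB1, the J protein that works with inducible HSP70, had a normalised signal of 396, 267 and 1221 in air animals 28, 29 and 44. It was 517, 327 and 421 in low animals 31, 32 and 33, and 371, 977, 741 and 1146 in medium animals 34, 39, 41 and 42. The highest value of all was that of an air animal, the lowest medium value lay below an air value, and the groups overlapped. DNAJB1 averaged 809 ± 336 in medium (SD, n = 4) and 628 ± 517 in air animals (SD, n = 3), the largest difference among the 53 genes at 0.54 ± 0.50 (SE, adjusted p = 0.636). Without air animal 44 it was 1.15 (adjusted p = 0.247). The difference of medium from low animals was 0.82 ± 0.50 (adjusted p = 0.404).

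HSPA6, a strictly inducible HSP70 of humans with almost no expression in unstressed cells, followed the same animals. Its signal was 126, 130 and 643 in the air animals, 149, 116 and 154 in the low animals, and 108, 274, 185 and 494 in the medium animals, in the order given above. Medium minus air was 0.04 ± 0.58 (adjusted p = 0.98), and low minus air was -0.63 ± 0.62 (adjusted p = 0.803). Both values rested on air animal 44, without which medium minus air was 0.77 (adjusted p = 0.457) and low minus air was 0.10. Without air animal 28 medium minus air was -0.33, without air animal 29 it was -0.31, and without medium animal 42 it was -0.30. DNAJB1 behaved alike, with low minus air at -0.28 ± 0.54 (adjusted p = 0.913) and at 0.33 without animal 44.

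**Figure D1:**
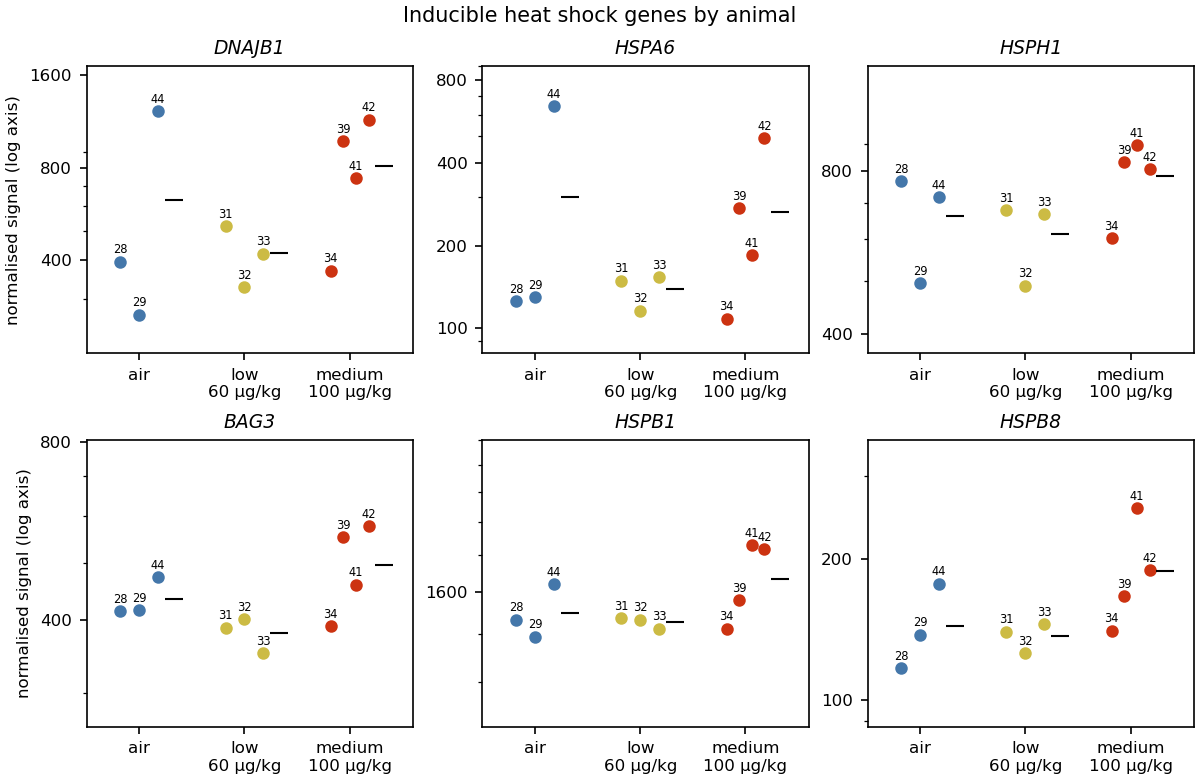
Normalised signal (log axis) of 6 inducible heat shock genes in each animal, by exposure, with animal numbers beside the points and a bar at the group mean. Air animal 44 and medium animals 39, 41 and 42 lie above the other animals for DNAJB1, from 741 to 1221 against 267 to 517.

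The level was shared by the lobes of an animal. In air animal 44, HSPA6 had 853 in the apical, 511 in the median and 610 in the caudal lobe, and DNAJB1 had 1543, 921 and 1279. In medium animal 42, HSPA6 had 620, 576 and 335 in those lobes, and DNAJB1 had 1283, 1262 and 927. Medium animal 34, which received the same dose, had 113, 119 and 95.2 for HSPA6 and 308, 399 and 414 for DNAJB1. All 3 lobes of animal 34 were thus below every lobe of animals 42 and 44 for both genes.

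**Figure D2:**
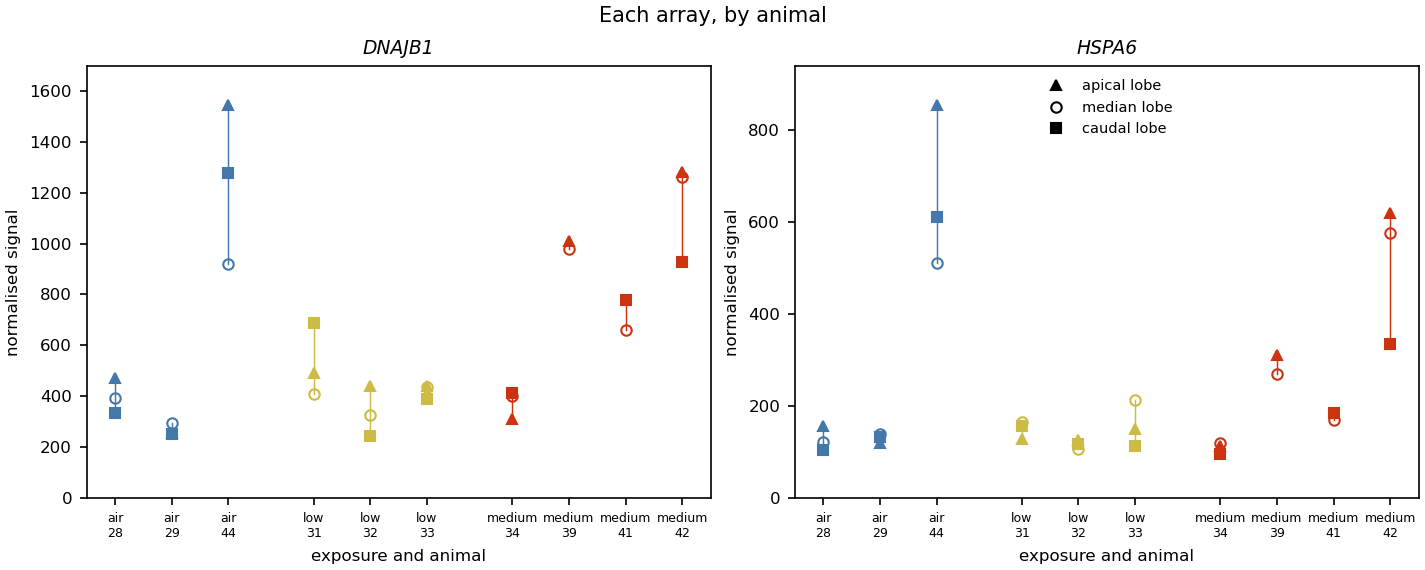
Normalised signal of DNAJB1 and HSPA6 on each of the 28 arrays, 1 column per animal, with the lobe as the symbol and a line joining the lobes of an animal. The lobes of air animal 44 stand high for both genes (511 to 853 for HSPA6) and those of medium animal 34 low (95.2 to 119).

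The standard deviation between animals of a group was 0.89 for HSPA6 and 0.77 for DNAJB1 on the log2 scale, at the 99.9th and 99.8th percentiles of all probe sets. Other inducible genes varied less, with 0.27 for HSPH1 and HSPB8, 0.18 for BAG3, 0.14 for HSPB1 and 0.05 for HSP90AA1. The median over the 53 genes was 0.11, against 0.15 over all probe sets. The pig's inducible HSP70 gene, listed as HSP70.2 with the synonyms HSPA1A and HSPA1B in the RefSeq table, lies outside the rule and was read on 3 probe sets. The brightest had 1690, 1424 and 2482 in the air animals, 1621, 1440 and 1630 in the low animals, and 1243, 2321, 2217 and 2356 in the medium animals. It too was high in air animal 44 and low in medium animal 34. Medium minus air on the 3 probe sets was 0.12, 0.49 and 0.50, with adjusted p of 0.857, 0.719 and 0.661. Without air animal 44 the 3 values were 0.34, 1.09 and 1.02 (adjusted p = 0.541, 0.385 and 0.35), and without air animal 29 they were -0.06, 0.03 and 0.08. Inducible HSP70 genes resemble each other in sequence, and whether their probes bind each other's RNA was not tested.

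Which genes shared the pattern of DNAJB1 over the 10 animals was described with 10 correlations, chosen after the values were seen, so that they are no independent support. Pearson's r was 0.92 for HSPA6 (Spearman's rho 0.90, permutation p = 6e-05 and 0.00084, adjusted over the 10 to 0.0006 and 0.0042). It was 0.94 for HSP70.2 (rho 0.92, permutation p = 0.0006 and 0.00058, adjusted to 0.003 and 0.0042), and 0.76 for HSPH1 (rho 0.76, permutation p = 0.009 and 0.0155, adjusted to 0.0189 and 0.0309). HSPH1 encodes HSP110, which exchanges nucleotide on HSP70 and holds unfolded proteins.

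BAG3, HSPB1, HSPB8 and HSP90AA1 ran with DNAJB1 as well. BAG3, which links HSP70 to small heat shock proteins in selective autophagy, had an r of 0.80 (rho 0.59, permutation p = 0.0097 and 0.0813, adjusted to 0.0189 and 0.102). HSPB1 had 0.79 (rho 0.83, permutation p = 0.0113 and 0.00476, adjusted to 0.0189 and 0.0159), and HSPB8, the partner of BAG3, had 0.69 (rho 0.78, permutation p = 0.029 and 0.0108, adjusted to 0.0414 and 0.0269). HSP90AA1, the stress-inducible HSP90, had 0.83 (rho 0.70, permutation p = 0.00836 and 0.0323, adjusted to 0.0189 and 0.0538). This was read on the brightest of its 5 probe sets, which gave 0.11 in medium minus low. The others gave -0.05, -0.23, -0.29 and 0.01, and their correlation with DNAJB1 was not tested. The rank correlation of BAG3 missed 0.05 before adjustment and that of HSP90AA1 after it.

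Other members had lower correlations with DNAJB1 over all 10 animals. HSPA8, the HSP70 expressed at all times, had an r of 0.05 (rho 0.03, permutation p = 0.895 and 0.941, adjusted to 0.895 and 0.941), DNAJA1 had 0.10 (rho 0.18, permutation p = 0.787 and 0.632, adjusted to 0.874 and 0.702), and DNAJB4 had 0.58 (rho 0.61, permutation p = 0.072 and 0.0663, adjusted to 0.09 and 0.0947). Over the 52 other members r ranged from -0.51 to 0.92 with a median of 0.18. Without animals 44 and 42, the 2 farthest from the median of DNAJB1, r over 8 animals was 0.90 for HSPA6, 0.90 for HSP70.2, 0.86 for HSPH1, 0.73 for BAG3, 0.71 for HSPB1, 0.67 for HSPB8, 0.84 for HSP90AA1 and 0.39 for DNAJB4. It was then 0.67 for HSPA8 and 0.53 for DNAJA1, so the low values of those genes rested on the 2 animals left out. With each exposure group centred on its mean, r was 0.95 for HSPA6, 0.94 for HSP70.2, 0.81 for HSP90AA1, 0.75 for DNAJB4, 0.74 for BAG3, 0.72 for HSPB1, 0.67 for HSPH1, 0.58 for HSPB8, 0.01 for DNAJA1 and -0.05 for HSPA8. DNAJB4 then lay above HSPH1 and HSPB8, so its place among the genes depended on how r was taken.

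None of these co-varying genes passed in medium against air. Medium minus air was 0.25 ± 0.19 for HSPH1 (adjusted p = 0.536), 0.34 ± 0.18 for HSPB8 (0.385), 0.17 ± 0.13 for BAG3 (0.549), 0.15 ± 0.10 for HSPB1 (0.501) and 0.05 ± 0.06 for HSP90AA1 (0.715). Single animals moved these values, HSPH1 to 0.065 without air animal 29 and HSPB8 to 0.21 without air animal 28 and 0.19 without medium animal 41. BAG3 was 0.28 without medium animal 34 and 0.09 without medium animal 42. HSPH1 had 602, 831, 894 and 806 in medium animals 34, 39, 41 and 42, against 767, 497 and 716 in air animals 28, 29 and 44. Medium animal 34 lay between the air values, and the groups overlapped. Against the low animals, medium was higher by 0.35 ± 0.19 for HSPH1 (adjusted p = 0.342), 0.35 ± 0.13 for BAG3 (0.209) and 0.39 ± 0.18 for HSPB8 (0.295). HSPH1 was 0.20 above low without low animal 32, and HSPB8 0.24 without medium animal 41. Without medium animal 34 the difference of BAG3 was 0.46 and passed (adjusted p = 0.0399), in a comparison that then called 5.72% of all probe sets.

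Over the 53 genes, 0 passed at an adjusted p under 0.05 in medium against air, where 0.129% of all probe sets passed, 0 in low against air, where 0.0% passed, and 0 in medium against low, where 0.00417% passed. All these are limma calls over 23999 probe sets. At an unadjusted p under 0.05, 11 of the 53 (20.8%) stood out in medium against air, against 16.6% of all probe sets, 4 (7.55%) in low against air, against 7.41%, and 11 (20.8%) in medium against low, against 18.2%. Both directions together, these shares lay close to the background, but the members were mostly higher. In medium against air 10 were higher (18.9%, against 8.2% of all probe sets) and 1 lower (1.89%, against 8.37%). In medium against low 10 were higher (18.9%, against 9.76%) and 1 lower (1.89%, against 8.46%), and in low against air 3 were higher (5.66%, against 3.54%) and 1 lower (1.89%, against 3.87%). When the lobes of an animal were modelled as a random effect, 4 genes passed in medium against air, namely CCT6A, HSPA12A, HSPA14 and CCT8, with adjusted p of 0.0259, 0.0291, 0.0466 and 0.0487. All 4 (7.55%) were higher in medium, where that model called 4.35% of all probe sets in either direction and 1.95% as higher.

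**Figure D3:**
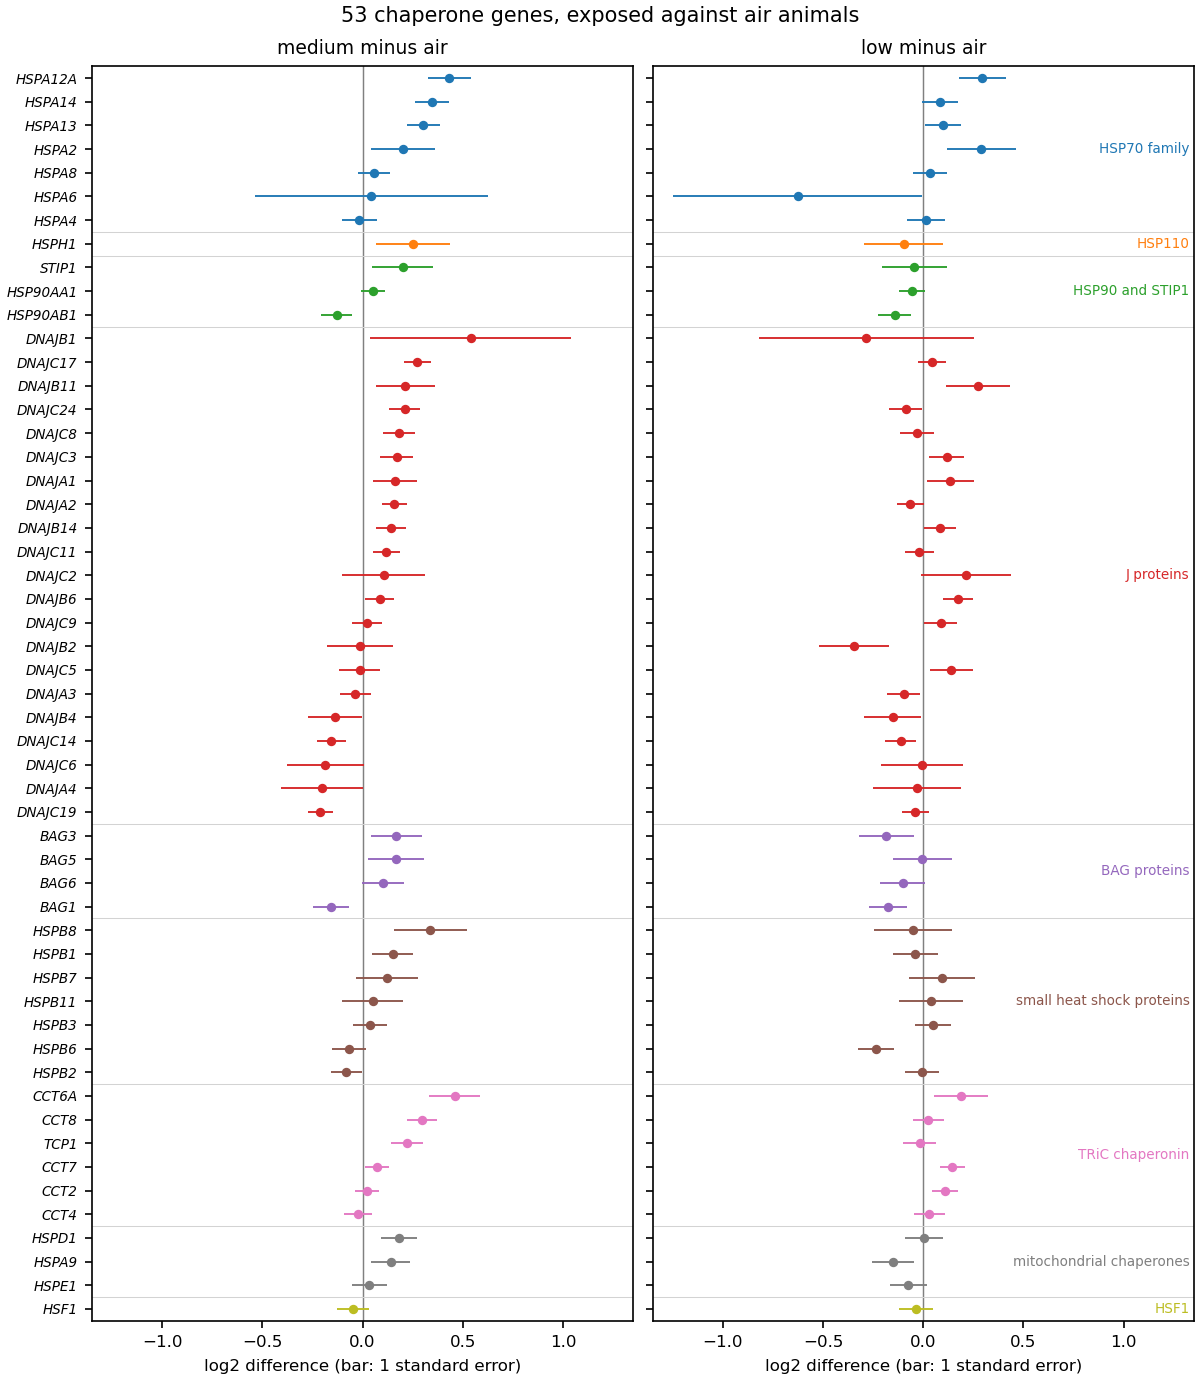
Log2 difference of medium minus air (left) and of low minus air (right) for the 53 genes, grouped by role, with bars of 1 standard error. Most points on the left lie above 0 (38 of 53), DNAJB1 and HSPA6 have the widest bars, and none of the 53 passed in either comparison.

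Small differences of medium from air pointed mostly upward. The median over the 53 genes was 0.10, against -0.00044 over all probe sets and -0.02 over the 6765 genes, and 38 genes lay above 0 and 15 below, where 45.7% of the 6765 genes lay above 0. In 12 genes (22.6%) every medium animal was higher than every air animal, which held for 6.88% of all probe sets and for 7.48% of the 6765 genes. In 1 gene (1.89%) every medium animal was lower, against 6.6% of probe sets and 8.25% of genes. With each of the 7 medium and air animals left out in turn, 12 to 17 members were higher without overlap, where the share of all probe sets was 8.18% to 12.6%, and 1 to 4 were lower, where it was 7.91% to 13.0%. Without HSPA13, DNAJB11 and DNAJC3 the median of the other 50 was 0.09.

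Markers of other cells moved in the same animals. Of 10 T and NK cell genes measured, 9 were below 0 in medium minus air, with a median of -0.42 and 0 called, among them CD3E, a T cell receptor chain, at -0.43 ± 0.12 (adjusted p = 0.135). Their summed signal was 910 to 1742 in medium and 1925 to 2064 in air animals, without overlap. The 7 airway secretory genes had a median of 0.37 and summed to 2219 to 2788 in medium and 1984 to 2404 in air animals, and the 6 ciliated cell genes had a median of -0.34 and summed to 932 to 1023 in medium and 932 to 1251 in air animals. The 8 smooth muscle genes had a median of 0.15 and sums of 9579 to 11263 in medium and 8148 to 9571 in air animals, narrowly without overlap. The 2 B and plasma cell genes summed to 1422 to 1651 in medium and 1765 to 1885 in air animals, also without overlap. For the other cell types the sums of medium and air animals overlapped. The part of these shifts in the chaperone differences below was not tested.

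The TRiC subunits held 3 of the 12. CCT6A had 744, 871, 1003 and 741 in medium animals 34, 39, 41 and 42, against 699, 567 and 550 in air animals 28, 29 and 44. It averaged 840 ± 125 in medium (SD, n = 4) and 605 ± 81.4 in air animals (SD, n = 3), a difference of 0.46 ± 0.13 (adjusted p = 0.133). The lowest medium value exceeded the highest air value, that of animal 28, by less than the spread within either group. A second probe set of CCT6A gave 0.40 ± 0.10 (adjusted p = 0.127), and over the 8 animals with all 3 lobes the difference was 0.30.

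CCT8, another ring subunit, had 1021, 905, 917 and 968 in the medium animals, against 754, 812 and 752 in the air animals, a difference of 0.30 ± 0.07 (adjusted p = 0.114). TCP1, the first subunit named, had 783, 711, 697 and 684 in the medium animals and 680, 584 and 580 in the air animals, a difference of 0.22 ± 0.08 (adjusted p = 0.207). The groups did not overlap for either gene, but for TCP1 the nearest medium and air animals had 684 and 680. The other 3 subunits lay near 0, with 0.02 ± 0.06 for CCT2 (adjusted p = 0.899), 0.07 ± 0.06 for CCT7 (0.586) and -0.02 ± 0.07 for CCT4 (0.908). The median of the 6 was 0.15 in medium minus air and 0.07 in low minus air, with 0 of 6 passing in each. The low animals had 726 to 831 for CCT8 and 587 to 625 for TCP1, within or near the air range, and medium minus low was 0.27 ± 0.07 for CCT8 (adjusted p = 0.139).

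**Figure D4:**
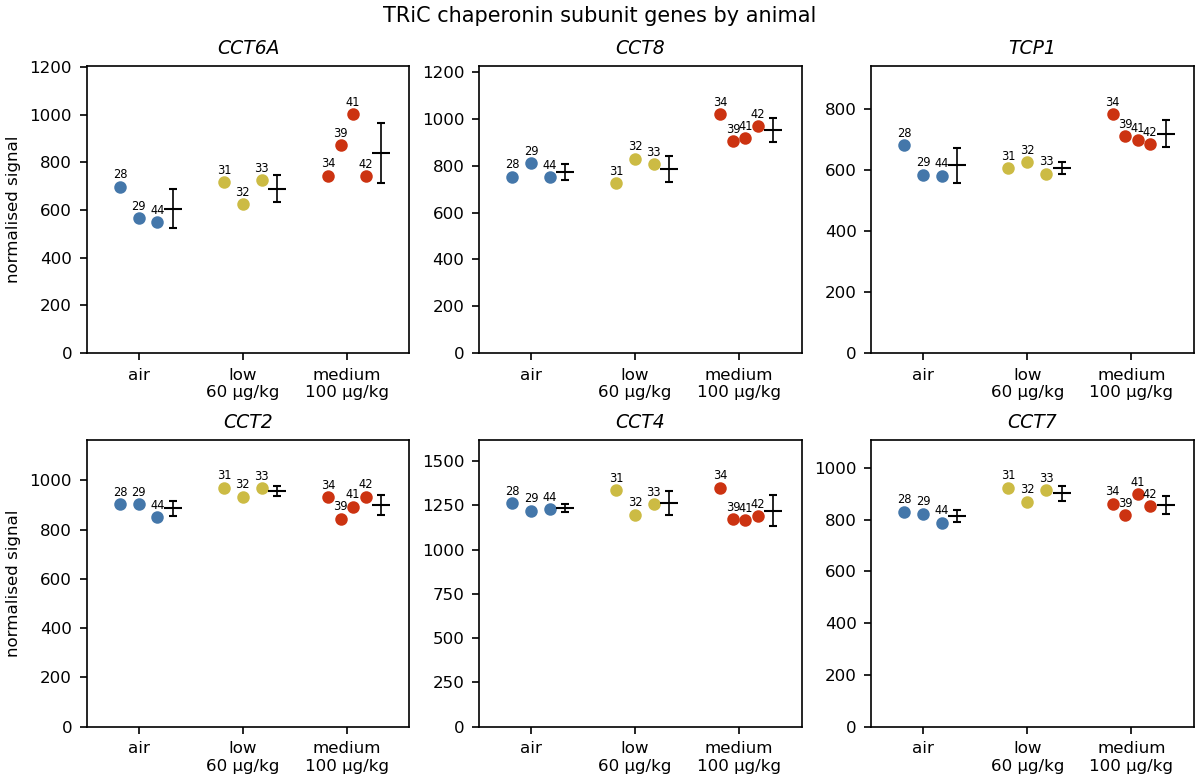
Normalised signal of 6 TRiC subunit genes in each animal, by exposure, with bars at the mean ± SD. The 4 medium animals lie above the 3 air animals for CCT6A, CCT8 and TCP1 (905 to 1021 against 752 to 812 for CCT8), and the groups overlap for CCT2, CCT4 and CCT7.

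Of the HSP70 family, HSPA14, HSPA13 and HSPA12A were higher in every medium than in every air animal. HSPA14, which in humans acts at the ribosome with DNAJC2, had 117, 109, 101 and 116 in medium animals 34, 39, 41 and 42, against 95.3, 79.8 and 76.5 in air animals 28, 29 and 44, a difference of 0.35 ± 0.08 (adjusted p = 0.109). HSPA13 had 296, 274, 298 and 325 in the medium animals, against 248, 229 and 238 in the air animals, a difference of 0.30 ± 0.08 (adjusted p = 0.133). Every medium animal exceeded the highest air animal by more than the SD of the air group for both genes, except animal 41 for HSPA14.

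HSPA12A, a distant HSP70 relative, had 33.5, 23.8, 26.6 and 21.0 in the medium animals and 13.8, 16.1 and 15.5 in the air animals, a difference of 0.43 ± 0.11 (adjusted p = 0.118). It is 1 of 4 members with a mean signal under 50, the others being HSPB3, HSPB7 and DNAJC6, and on this scale the offset of 16 understates changes of such dim genes. With an offset of 1 the difference of HSPA12A was 0.75. The low animals had 27.2, 19.7 and 19.9 for HSPA12A, also above the air range, with low minus air at 0.29 ± 0.12 (adjusted p = 0.661). HSPA2, an HSP70 best known from the testis, differed by 0.20 ± 0.16 in medium (adjusted p = 0.571) and by 0.29 ± 0.17 in low animals (0.707), and without air animal 44 by 0.03 in medium and 0.11 in low animals.

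HSPA8, HSPA4, HSP90AB1, STIP1 and HSF1 did not pass in medium against air. HSPA8 had 2208, 2260, 2083 and 1903 in the medium animals, against 2141, 1917 and 2024 in the air animals, a difference of 0.06 ± 0.08 (adjusted p = 0.768). HSPA4, an exchange factor related to HSP110, differed by -0.02 ± 0.09 (adjusted p = 0.954), while a second probe set of HSPA4 gave 0.25 ± 0.07 (0.142), so that its sign depended on the probe set. HSP90AB1, the constitutive HSP90, differed by -0.13 ± 0.08 (adjusted p = 0.44), and STIP1, which passes clients between HSP70 and HSP90, by 0.20 ± 0.15 (0.553). The difference of STIP1 was 0.37 without air animal 28 and 0.06 over the 8 animals with all 3 lobes. HSF1 differed by -0.05 ± 0.08 (adjusted p = 0.815).

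The mitochondrial chaperones fold imported proteins in the matrix, HSPA9 as its HSP70 and HSPD1 with HSPE1 as its chaperonin. Medium minus air was 0.18 ± 0.09 for HSPD1 (adjusted p = 0.338), 0.14 ± 0.10 for HSPA9 (0.512) and 0.03 ± 0.09 for HSPE1 (0.894). HSPA9 had 965, 1324, 1087 and 1066 in medium animals 34, 39, 41 and 42, against 877, 948 and 874 in low animals 31, 32 and 33, without overlap, and medium minus low was 0.29 ± 0.10 (adjusted p = 0.188). The air animals, at 1027, 981 and 991, lay between the low and most medium values. Animal 39, whose RNA had the strongest 3' bias, had the highest HSPA9, HSPD1 and HSPE1 of all 10 animals, at 1324, 1897 and 2266. Without it medium minus air was 0.12 for HSPD1, 0.05 for HSPA9 and -0.043 for HSPE1. With the mean of its probe sets HSPA9 had a medium minus low of -0.054.

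Among the 21 J proteins, 13 lay above 0 and 8 below in medium minus air, with a median of 0.10 and 0 passing. DNAJC17, which in humans is tied to splicing, had 110, 103, 92.4 and 104 in the medium animals, against 83.5, 83.0 and 79.1 in the air animals, a difference of 0.27 ± 0.07 (adjusted p = 0.109). The 3 low animals, at 87.0, 84.7 and 82.9, were close to the air animals. DNAJC24, an enzyme partner in diphthamide synthesis, averaged 170 ± 9.3 in medium (SD, n = 4) and 144 ± 5.6 in air animals (SD, n = 3), a difference of 0.21 ± 0.08 (adjusted p = 0.218).

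DNAJA2, DNAJC3, DNAJC8 and DNAJC11 were also higher in every medium than in every air animal. The nearest medium and air animals had 522.55 and 522.15 for DNAJC8, and 99.98 and 99.35 for DNAJC11, so these groups barely separated. DNAJC19, which drives import through the inner mitochondrial membrane, was the member lower in every medium animal, with 162, 154, 146 and 152 against 179, 180 and 182 in the air animals. DNAJB11, a J protein of the endoplasmic reticulum, differed by 0.21 ± 0.15 in medium (adjusted p = 0.505) and 0.27 ± 0.16 in low animals (0.703), and DNAJA1, a main partner of HSPA8, by 0.16 ± 0.11 in medium animals (0.488). DNAJB2 gave -0.34 ± 0.17 in low minus air (adjusted p = 0.685) and 0.33 ± 0.16 in medium minus low (0.313). With the RNA index as a covariate these were -0.16 and 0.17, and low minus air of DNAJB11 was 0.14. Medium minus low of DNAJB2 was 0.11 over the 8 animals with all 3 lobes and 0.22 without medium animal 39.

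The BAG and small heat shock proteins had no gene without overlap between medium and air. The medians were 0.14 for the 4 BAG genes and 0.05 for the 7 small heat shock genes in medium minus air, and -0.14 and -0.01 in low minus air, with 0 passing in each. HSPB3 lay at 4.1 to 8.7 in all animals, near the bottom of the scale.

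In low against air the 53 genes showed no common direction. The median was -0.01, with 24 genes above and 29 below 0. Every low animal was higher than every air animal in 4 genes (7.55%), CCT2, CCT7, DNAJB6 and HSPA12A, where 9.23% of all probe sets were, and lower in 5 (9.43%), BAG3, DNAJB2, HSP90AB1, HSPA9 and HSPB6, where 9.41% were. In medium against low the median was 0.06, which became 0.014 with the mean of a gene's probe sets and 0.10 on median-centred arrays, and 11 genes (20.8%) were higher without overlap, against 7.26% of probe sets, and 2 (3.77%), CCT2 and DNAJC19, were lower, against 6.6%. These comparisons share animals with medium against air, so their counts are not separate evidence.

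Genes around the chaperones in the same pathways were read from lists with 0 members passing in the 3 exposure comparisons. Of 19 other co-chaperones and HSF genes, 13 lay above 0 in medium minus air with a median of 0.03. FKBP5, an HSP90 co-chaperone induced by glucocorticoids, differed by 1.07 ± 0.58 (adjusted p = 0.389), and HSPBP1, an exchange factor of HSP70, by 0.34 ± 0.09 (0.127). The 15 chaperones and stress genes of the endoplasmic reticulum had a median of 0.08, with CRELD2 at 0.39 ± 0.13 (adjusted p = 0.187) and MANF at 0.37 ± 0.12 (0.166). The 9 other mitochondrial quality control genes had a median of 0.07, with TOMM34 at -0.47 ± 0.12 (0.127) and CLPB at 0.33 ± 0.15 (0.303). The 6 prefoldin genes, whose products hand actin and tubulin to TRiC, had a median of 0.04, with PFDN5 at -0.18 ± 0.09 (0.315) and PFDN4 at 0.16 ± 0.07 (0.311).

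Within lobes, HSPA14 in the median lobe was the only member called in an exposure comparison. There it had 128, 124, 109 and 127 in medium animals 34, 39, 41 and 42, against 84.3, 69.8 and 72.3 in air animals 28, 29 and 44, and the groups did not overlap. The difference was 0.59 ± 0.10 (adjusted p = 0.048), in a comparison that called 0.404% of all probe sets. In the caudal lobe HSPA14 differed by 0.32 ± 0.14 (adjusted p = 0.313) and in the apical lobe by 0.14 ± 0.13 (0.946). The call was lost in 13 of 15 other settings, with differences from 0.55 to 0.69, and without air animal 44 it was 0.57 (adjusted p = 0.08). Few probe sets of any kind passed in many of these settings. The share of all probe sets was 0.0% without animal 28, 29, 31, 32 or 41. It was 0.0167% to 0.0458% without animal 33, 39, 42 or 44, and 0.05% with an offset of 1.

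The call in 1 lobe does not show that the lobes differ. No member passed the test of an exposure difference that varies between lobes, where 0.0% of all probe sets passed, and the smallest p belonged to DNAJC17, HSPA4, HSPA14 and DNAJC2, with adjusted p of 0.626, 0.646, 0.673 and 0.679. CCT8 in the median lobe gave 0.48 ± 0.09 (adjusted p = 0.052). Medium against air called 0 members in the apical lobe, where 0.0% of probe sets passed, and 0 in the caudal lobe, where 0.00417% passed. Low against air called 0 in the apical, median and caudal lobe, with 0.0% of probe sets in each. The median of the 53 genes in medium minus air was 0.04 in the apical, 0.10 in the median and 0.10 in the caudal lobe.

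The apical lobe differed from the median lobe of the same animals in 2 members. DNAJB11 was lower in the apical lobe by 0.38 on the log2 scale (-0.38 ± 0.09, adjusted p = 0.0381) and HSPA4 by 0.26 (-0.26 ± 0.06, adjusted p = 0.0401), in a comparison that called 2.38% of all probe sets. Both genes were lower in the apical lobe of 9 of the 9 animals with both lobes, by 0.11 to 0.67 for DNAJB11 and by 0.04 to 0.68 for HSPA4. The widest pair for DNAJB11 was 164 in the apical and 270 in the median lobe of medium animal 39. For HSPA4 it was 139 in the apical and 232 in the median lobe of medium animal 42.

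More members were lower than higher in the apical lobe. The median of the 53 genes was -0.08 in apical minus median lobe, against 0.0032 over all probe sets, with 42 genes below 0. At an unadjusted p under 0.05, 15 genes (28.3%) were lower, against 7.47% of all probe sets. Other lists moved with them. Of the 15 chaperones and stress genes of the endoplasmic reticulum, 14 were below 0 with a median of -0.15 and 6 fell, and their summed signal was lower in the apical lobe of 9 of 9 animals. The 7 airway secretory genes were all below 0 with a median of -0.23 and 2 fell, and they summed to 1764 to 2770 in the apical and 2220 to 3138 in the median lobe. The 6 ciliated cell genes were all below 0 with a median of -0.17 and 0 called, and summed to 856 to 1372 in the apical and 931 to 1567 in the median lobe. The part of these cells in the lobe differences of the chaperones was not tested. The next in order were CCT6A at -0.26 ± 0.07 (adjusted p = 0.0509), DNAJC3 at -0.23 ± 0.07 (0.0622) and HSPA8 at -0.17 ± 0.05 (0.0643). The 2 calls were not stable, since DNAJB11 lost its call in 11 and HSPA4 in 12 of 17 other settings, including the removal of single animals. Apical against caudal lobe called 0 members, where 0.167% of probe sets passed, and median against caudal called 0, where 0.0% passed.

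**Figure D5:**
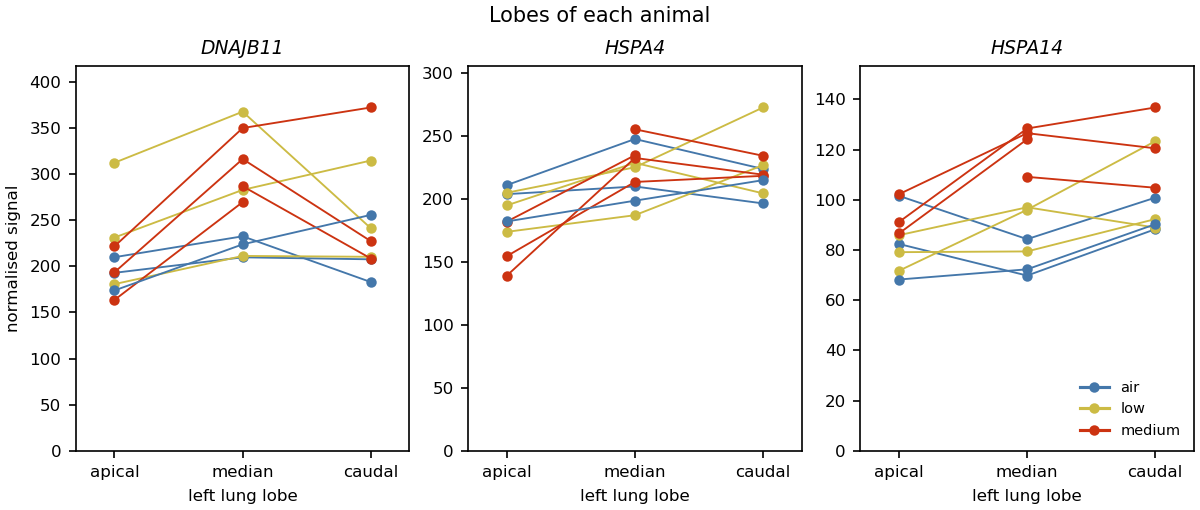
Normalised signal of DNAJB11, HSPA4 and HSPA14 in the 3 lobes, with a line for each animal coloured by exposure. The apical values of DNAJB11 and HSPA4 lie below the median-lobe values in all 9 animals with both, and HSPA14 in the median lobe is 109 to 128 in medium and 69.8 to 84.3 in air animals.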

How the data were processed

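RNA was hybridised to the Affymetrix porcine array per the labels. The authors deposited linear signal intensity per probe set; its mean after trimming 2% at each end was 150.0 on every array, and the summarization software is not given in the sources used here. Of 24123 probe sets, 124 controls were left out and 23999 tested. Intensity was quantile normalised as log2(signal + 16). Arrays were reduced to 1 value per animal (animal and lobe as terms), and these fed the exposure comparisons in limma 3.58.1 (lmFit, eBayes, R 4.3.3) with Benjamini-Hochberg adjustment over all probe sets. Lobe fits used 1 array per animal, and lobe contrasts kept the animal as a fixed block, since lobes came from the same animal and correlated at 0.334. The steps were tested on simulated data. Python 3.11.15 made tables and figures. Named genes were called members, the 12 largest differences in medium against air, the 6 largest in each other exposure comparison, and a fixed set of well-known chaperones. Members and lists were chosen with earlier results of these data known. Alternatives were other normalisations, an offset of 1, the brighter probe sets, trend and robust eBayes, a random animal effect, the 2 groups alone, an RNA index covariate, probe set means, and leaving out animals. The shares over the 6765 genes, 1 probe set each, were added after the results were seen.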

Additional observations from a re-analysis of the deposited data

How the results depend on the processing

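Over the alternatives, 0 members passed in medium against air except with a random animal effect, which gave 4 and called 4.35% of all probe sets. Their median of 0.10 became 0.13 with an offset of 1 and 0.073 with the 8 animals that have all 3 lobes, and 0.065 to 0.12 with 1 animal left out. In medium against low the random effect gave 3 calls, with 5.84% of all probe sets called, and leaving out 1 animal 0 to 2, with 2 when medium animal 34 was left out and 5.72% of all probe sets called. The counts of 3 and 2 were below these shares, while the 4 in medium against air lay above the share given there. The median in medium against low was 0.10 on median-centred arrays and 0.11 in the brighter probe sets. It was 0.014 with the mean of a gene's probe sets, and 0.060 to 0.10 with 1 animal left out. The median in low against air was -0.041 to 0.020 with 1 animal left out. The calls of medium against air in the median lobe numbered 0 on median-centred arrays (0.258% of all probe sets called), with the deposited scaling (0.308%) and with an offset of 1 (0.05%). They numbered 2 in the brighter probe sets (1.93% of those probe sets called). With 1 animal left out they numbered 0 to 2, where 0.0% to 1.66% of all probe sets were called. The 2 calls at 1.66% came without medium animal 34. Apical against median lobe gave 1 call on median-centred arrays (2.05% of probe sets called), 0 with an offset of 1 (0.846%), 5 in the brighter probe sets (8.38%), 4 with trend and robust eBayes (3.13%), 0 with the 8 animals (0.2%), and 0 to 3 with 1 animal left out (0.138% to 2.37%). Without the replicate block it gave 0, at a median of -0.09, and the calls in the other lobe contrasts stayed at 0. Differences near 0 changed sign. With the mean of a gene's probe sets, medium minus air was 0.044 for HSF1, -0.013 for HSP90AA1, 0.11 for HSPA4, 0.025 for CCT4 and -0.034 for HSPA8, and medium minus low -0.054 for HSPA9. With the 8 animals HSPE1 was -0.0069, CCT4 0.033 and the brightest HSP70.2 probe set -0.083. With 1 animal left out, medium minus air was -0.0062 to 0.051 for CCT2, -0.074 to 0.0065 for HSF1, -0.061 to 0.040 for HSPA4, -0.043 to 0.084 for HSPE1, -0.33 to 0.77 for HSPA6 and -0.056 to 0.34 for the brightest HSP70.2 probe set, and low minus air was -0.73 to 0.33 for DNAJB1 and -1.0 to 0.10 for HSPA6. The causes were not tested. Of 33 further probe sets of the members, 11 had the opposite sign to the brightest in medium against air. The number was 18 in low against air and 20 in medium against low, so the signs in those comparisons often depended on the probe set.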
